A study of Drosophila melanogaster with 2 samples.

Results

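The proteasome is the protease complex that degrades ubiquitin-tagged proteins, and 48 of the 13945 protein-coding genes on the 6 chromosome arms of the peak lists encode its subunits or close copies of them. They were chosen by symbol: every gene of the Ensembl release 115 annotation whose name begins with Prosalpha, Prosbeta, or with Rpn or Rpt followed by a digit. Of these, 14 are the main core particle genes (7 alpha and 7 beta), 18 are the main regulatory particle genes (6 Rpt ATPases, 4 other base subunits and 8 lid subunits), and 16 are paralogs marked by T or R in the symbol (11 of core and 5 of regulatory genes). Chromatin bound by CG12744, a Drosophila protein expressed from a transgene with GFP at its C-terminus, was immunoprecipitated with an antibody to GFP and sequenced (ChIP-seq). The material was whole embryos of both sexes aged 0 to 24 h from 1 transgenic strain, sonicated to fragments of 200 to 800 bp. There was 1 group of 2 libraries, labelled biological replicates 2 and 4, so no conditions were compared, and a control named in the records was not used here. In whole embryos, fewer cells with the protein on a promoter and less protein per cell cannot be told apart, and the labels do not name the cells that express the transgene.

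A promoter peak here is a peak whose summit lies within 500 bp of any annotated start site of a gene. The authors' thresholded dm6 list holds 2758 peaks that passed the irreproducible discovery rate, a test of how alike peaks rank in replicates. The pooled list of both replicates and the list of each replicate hold 30000 peaks each, mostly background kept for that test, and a peak from below the threshold is given by its rank, not as binding. Peaks were ranked by the authors' deposited signal value, 1 being the highest. The scale of the signal is not stated, so signals are compared only within a list. Thresholded signals ran from 68.4 to 1147.7 with a median of 99.1. Read depth is unknown from these files.

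The core particle is a barrel of 4 stacked rings, with alpha subunits in the outer rings and beta subunits in the inner rings, where Prosbeta1, Prosbeta2 and Prosbeta5 carry the active sites. The regulatory particle caps it: the base unfolds substrates with its ring of Rpt ATPases and holds ubiquitin receptors, and the lid carries the deubiquitinase Rpn11. All main subunits are needed in most cells, and in many organisms their genes share transcriptional regulators. In flies, the transcription factor CncC raises proteasome gene expression, and several paralogs have testis-specific expression. Expression was not measured here, so the paralogs' testis expression is background only.

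Thresholded promoter peaks were found at 5 proteasome genes, all of the regulatory particle: Rpn5, Rpn3, Rpn11, Rpn2 and Rpt5. Rpn5 had 2, so there were 6 peaks in all, and the dm6 sequence around each summit is shown to let the letters under the peaks be compared. Each line runs 5′ to 3′ on the strand of the proteasome gene and covers up to 100 bases to each side of the summit, shortened where an annotated untranslated region ran past 30 bases. Capitals mark ATCGAT, the core of the DNA replication-related element (DRE, TATCGATA), and CACTG or its reverse complement. The DRE is the site of the fly promoter factor Dref, and both CACTG and CAACACTG were searched because earlier results of these data had named them. Rpn11 is on the minus strand and the others are on the plus strand. The stretches lie at chr3R:5789093-5789293 and chr3R:5789355-5789510 (Rpn5), chr2L:19051705-19051819 (Rpn3), chr3R:23752805-23752905 (Rpt5), chr3R:29153372-29153553 (Rpn2) and chr2L:5059773-5059973 (Rpn11).
Rpn5 peak 1: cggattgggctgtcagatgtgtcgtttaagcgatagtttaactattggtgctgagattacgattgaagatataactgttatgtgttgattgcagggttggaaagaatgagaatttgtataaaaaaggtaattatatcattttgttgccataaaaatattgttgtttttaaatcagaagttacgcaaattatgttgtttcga
Rpn5 peak 2: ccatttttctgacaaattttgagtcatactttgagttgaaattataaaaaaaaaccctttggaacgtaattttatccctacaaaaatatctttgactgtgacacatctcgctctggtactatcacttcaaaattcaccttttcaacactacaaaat
Rpn3 peak 1: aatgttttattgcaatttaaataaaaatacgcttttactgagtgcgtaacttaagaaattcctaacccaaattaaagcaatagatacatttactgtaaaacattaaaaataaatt
Rpt5 peak 1: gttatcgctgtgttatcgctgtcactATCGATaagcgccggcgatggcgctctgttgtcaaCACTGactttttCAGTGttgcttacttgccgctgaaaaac
Rpn2 peak 1: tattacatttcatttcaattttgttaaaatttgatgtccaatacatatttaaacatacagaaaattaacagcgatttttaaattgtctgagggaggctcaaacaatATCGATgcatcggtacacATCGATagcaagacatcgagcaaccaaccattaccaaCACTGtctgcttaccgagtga
Rpn11 peak 1: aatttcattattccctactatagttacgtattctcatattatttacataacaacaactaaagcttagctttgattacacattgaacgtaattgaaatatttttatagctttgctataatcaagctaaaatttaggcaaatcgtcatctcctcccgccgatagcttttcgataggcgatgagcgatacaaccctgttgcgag

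Below them stand the start sites of 2 core genes, Prosbeta2 and Prosbeta6, which hold a full DRE and had no promoter peak in the pooled list or in either replicate list. They are shown from 250 bases before to 29 bases after the start site, with the same capitals. Prosbeta2 lies at chr3L:14999701-14999980 on the plus strand and Prosbeta6 at chr3L:16610389-16610668 on the minus strand, in dm6. Sequences are from the RefSeq Release 6 genome.
Prosbeta2: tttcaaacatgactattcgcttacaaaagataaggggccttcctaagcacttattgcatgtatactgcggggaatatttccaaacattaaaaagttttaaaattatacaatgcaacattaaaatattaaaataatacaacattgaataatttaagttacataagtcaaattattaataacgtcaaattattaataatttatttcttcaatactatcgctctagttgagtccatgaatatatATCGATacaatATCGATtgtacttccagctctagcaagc
Prosbeta6: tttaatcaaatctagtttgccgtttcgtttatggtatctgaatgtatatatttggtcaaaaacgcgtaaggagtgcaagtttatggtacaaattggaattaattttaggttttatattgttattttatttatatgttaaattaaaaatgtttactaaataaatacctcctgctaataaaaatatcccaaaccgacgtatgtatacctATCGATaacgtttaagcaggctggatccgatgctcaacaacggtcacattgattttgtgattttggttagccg

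Rpn5, a lid subunit, had the highest signal of all members. Its first peak, with a summit 300 bp upstream of the start site in an intron of Hat1, ranked 524 in the pooled list with a signal of 158. In replicate 2 it ranked 718 with a signal of 74.9, and in replicate 4 it ranked 443 with a signal of 80.8, so it was among the highest member peaks in both libraries. Its second peak lay 217 bp closer, 83 bp upstream of the start site, and ranked 857 with a signal of 127. This one differed between libraries: it ranked 4509 with a signal of 30.6 in replicate 2 and 610 with a signal of 70.0 in replicate 4. Hat1, a histone acetyltransferase gene read the other way, has start sites 119 bp from the first summit and 26 bp from the second, nearer in both cases than that of Rpn5.

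Rpn3, another lid subunit, had its summit 15 bp downstream of the start site, in the 5′ UTR. The peak ranked 828 with a signal of 128 in the pooled list, 702 with 75.7 in replicate 2 and 1017 with 54.4 in replicate 4. It was high in both libraries. The divergent gene l(2)37Bb starts 193 bp from the summit.

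Rpn11, the deubiquitinase of the lid, had a summit 83 bp upstream that ranked 1807 with a signal of 85.7. It ranked 1402 with a signal of 55.2 in replicate 2 and 2702 with a signal of 33.1 in replicate 4. A second summit 212 bp further upstream fell just under the threshold, at rank 2851 with a signal of 67.2. No other gene starts within 500 bp of either summit, which makes Rpn11 the single member here whose thresholded peak is shared with no neighbour.

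Rpn2, the large scaffold subunit of the base, had a summit 52 bp upstream at rank 1774 with a signal of 86.5. The libraries differed: it ranked 5052 with a signal of 28.8 in replicate 2 and 1008 with a signal of 54.6 in replicate 4. Slbp, which encodes the stem-loop binding protein of histone mRNAs, starts 206 bp from the summit on the other strand.

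Rpt5, an ATPase of the base, had a summit 35 bp upstream at rank 1630 with a signal of 90.9. It ranked 1757 with a signal of 49.3 in replicate 2 and 1987 with a signal of 38.5 in replicate 4, and the summits of the 3 lists lay within 5 bp of each other. The divergent gene RanBP3 starts 7 bp from the summit, so the peak sits between the start sites of the 2 genes. Across the 5 genes, 4 share their peak with another gene, and 3 of the 6 peaks are nearer to the other gene's start; a peak between 2 starts cannot be given to 1 of them.

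**Figure D1:**
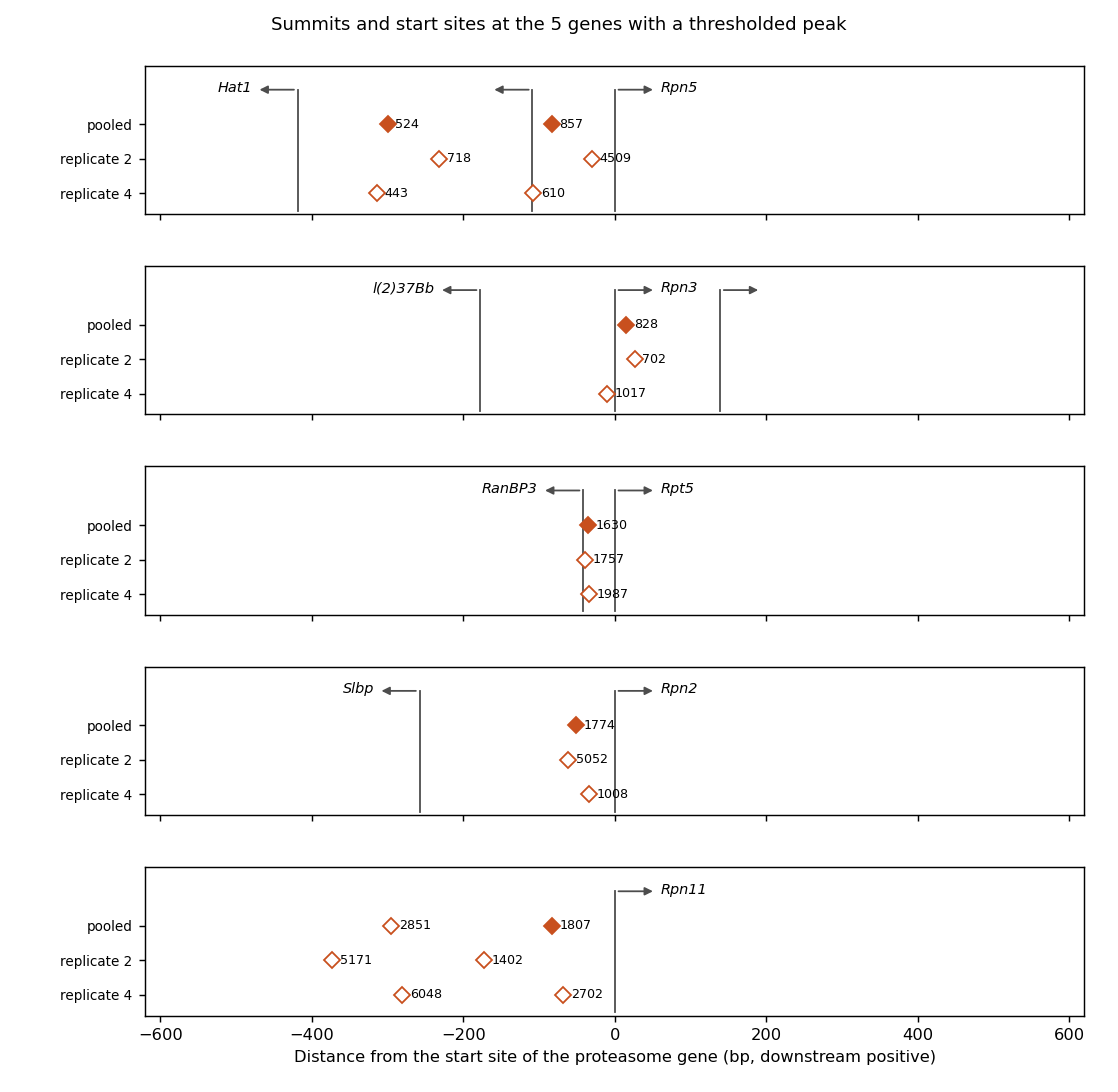
Summits in the pooled list and in each replicate (diamonds, filled where thresholded, with their rank) around the 5 genes with a thresholded promoter peak, drawn in bp from the outermost start site of the proteasome gene; vertical lines with arrows are annotated start sites. Every thresholded summit has a summit within 100 bp in both replicates, and at Rpt5 the 3 summits lie between the start sites of Rpt5 and RanBP3.

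All 6 thresholded peaks had a summit within 100 bp in both replicate lists, and 3 had one within 50 bp in both. The thresholded list was made from these same replicates, so the matches are no separate support for the peaks. The median position of the 6 peaks relative to the start site was -67.5 bp, upstream being negative (range -300 to 15 bp), and 5 of 6 were upstream. The matched summits had a median of -50.5 bp in replicate 2 and -51 bp in replicate 4. Over the 1526 thresholded promoter peaks of all protein-coding genes the median was 90 bp upstream, with 81.8% upstream. The 1526 include the member peaks, no test of the positions was run, and with a window of 250 bp the member median was -52 bp over 5 peaks.

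As a share, 5 of the 48 genes is 10.4% (95% Clopper-Pearson interval 3.47% to 22.7%), beside 14.4% of all protein-coding genes, which lies inside the interval. Such intervals, here and below, cover counting error over genes only, not the variation between embryo collections. The classes differed in count. The main regulatory particle had 5 of 18 (27.8%, interval 9.69% to 53.5%), the main core particle 0 of 14 (interval up to 23.2%) and the paralogs 0 of 16 (interval up to 20.6%). The 14.4% of all genes lies inside the interval of each class, and the intervals of the classes overlap. In replicate 2 alone, read by its 2758 highest peaks, the regulatory particle had 7 of 18 (38.9%, interval 17.3% to 64.3%), and the 14.6% of all genes lies below that interval. In replicate 4 alone, read the same way, it had 5 of 18 (27.8%, interval 9.69% to 53.5%), and the 13.7% of all genes lies inside. Within the regulatory particle the lid had 3 of 8, the ATPases 1 of 6 and the other base subunits 1 of 4.

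Directly under the threshold stood more genes of the regulatory particle, and none of the core. Rpt2, an ATPase, ranked 2884 with a signal of 66.8 in the pooled list, 3458 with 35.3 in replicate 2 and 3710 with 28.3 in replicate 4, with its summit 23 bp downstream of the start site. Rpn13, a ubiquitin receptor, ranked 2968 with a signal of 65.8, 1733 with 49.8 in replicate 2 and 4810 with 24.8 in replicate 4. Rpn6, a lid subunit that also touches the core particle, ranked 3070 with a signal of 64.7, 1775 with 49.1 in replicate 2 and 7580 with 20.2 in replicate 4. Rpn13 and Rpn6 were higher in replicate 2, Rpt2 was even. The 3 pooled signals are close to the lowest thresholded signal, and no core gene or paralog lay between them.

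Rpn8, the partner of Rpn11 in the lid, ranked 3218 with a signal of 62.96, at a start site inside the gene and not at its outermost one. It ranked 2536 in replicate 2 and 3214 in replicate 4, an even pair. Rpn7, also of the lid, ranked 3846 with a signal of 57.2, 6026 in replicate 2 and 2902 in replicate 4. Of the last 2 lid genes, Rpn9 ranked 5392, 5439 in replicate 2 and 4536 in replicate 4, and Rpn12 ranked 6229, 4278 in replicate 2 and 15951 in replicate 4. These are not all the same peak. At both genes the pooled summit had one within 100 bp in replicate 4 only, at rank 4536 for Rpn9 and 16582 for Rpn12. All 8 lid genes therefore had a pooled promoter peak among the 10000 highest, and the median of their best ranks was 3144.

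The other ATPases were spread more widely. Rpt3 and Rpt6 ranked 6549 and 6636 in the pooled list. Rpt3 ranked 5930 in replicate 2 and 18070 in replicate 4, while Rpt6 ranked 3799 in replicate 2 and had no promoter peak in replicate 4. Rpt4 ranked 25018, near the end of the list. Rpt1 had no pooled promoter peak at all and a single one in replicate 4, at rank 28180. Of the remaining base subunits, the ubiquitin receptor Rpn10 ranked 8594, and Rpn1, a scaffold that docks ubiquitin shuttles, ranked 22752. Rpn1 ranked 10347 in replicate 2 and had none in replicate 4, so it rests on 1 library.

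Core particle genes lay lower. The highest was Prosbeta1, which carries the caspase-like site, at rank 4659 with a signal of 51.5, 4542 with 30.5 in replicate 2 and 3947 with 27.4 in replicate 4. Prosalpha7 followed at rank 5099 with a signal of 49.0. Its libraries differed: it ranked 8195 with a signal of 21.8 in replicate 2 and 2590 with a signal of 33.8 in replicate 4. These 2 and Prosalpha3, which ranked 10058 in the pooled list, were the core genes whose best pooled peak had a summit within 100 bp in both replicates.

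Other alpha genes were Prosalpha5 at rank 6062, Prosalpha6 at 8689, Prosalpha2 at 14501 and Prosalpha4 at 19953 in the pooled list. In the beta ring, Prosbeta5, which carries the chymotrypsin-like site, ranked 13968, and Prosbeta3 ranked 16484. Prosbeta5 ranked 4040 with a signal of 32.6 in replicate 2 and had no promoter peak in replicate 4. No pooled promoter peak was found at Prosalpha1, Prosbeta2, which carries the trypsin-like site, Prosbeta4, Prosbeta6 or Prosbeta7. Prosbeta7 had 1 in replicate 2 alone, at rank 26531. Over the core, 6 of 7 alpha genes and 3 of 7 beta genes had a pooled promoter peak, and the median of the best ranks, with genes without a peak placed last, was 15492.5 against 3532 for the regulatory particle and 22579 for all protein-coding genes.

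**Figure D2:**
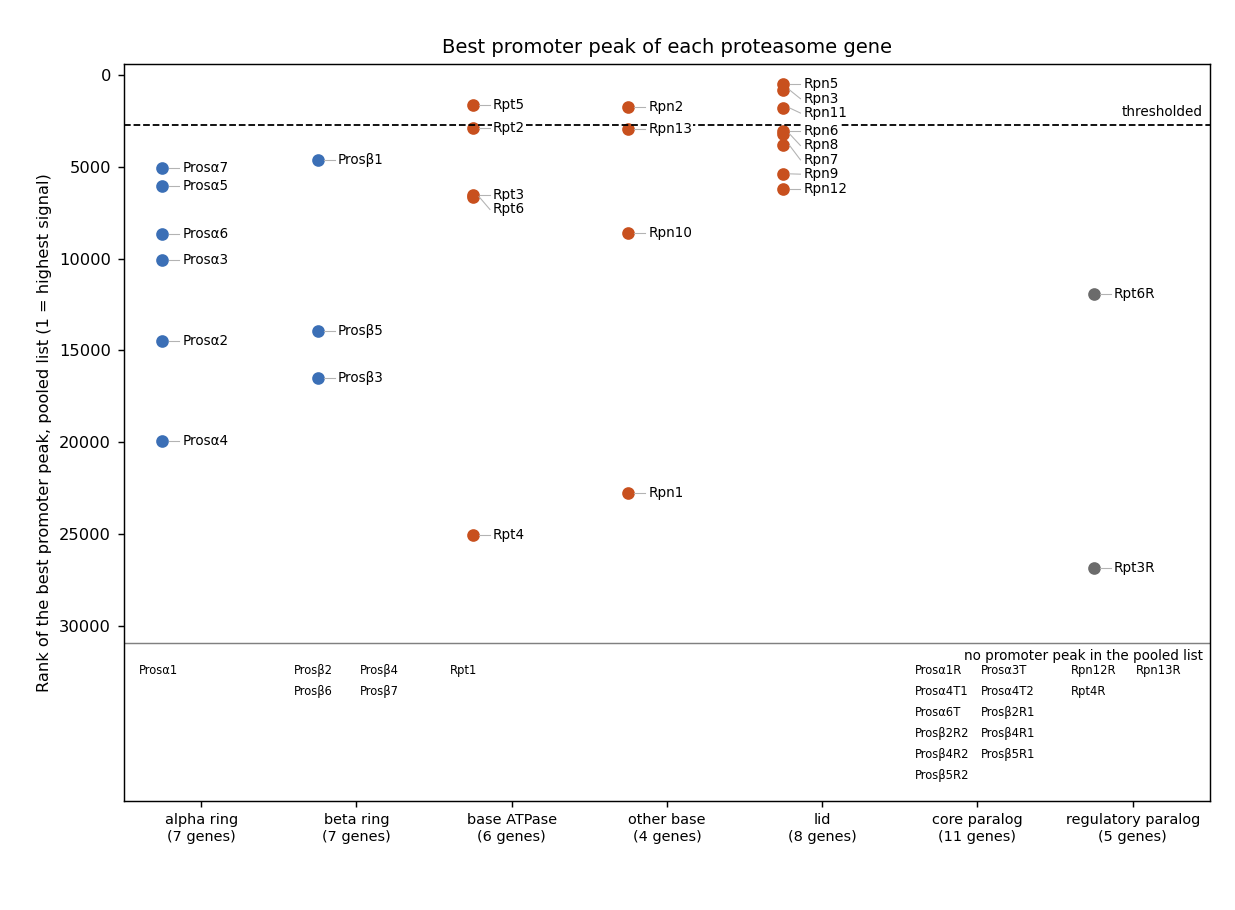
Rank of the best promoter peak of each of the 48 genes in the pooled list (1 at the top), by place in the complex; the dashed line is the last thresholded rank, 2758, and genes without a pooled promoter peak are named at the bottom. Lid genes lie between 524 and 6229, while the core particle begins at 4659 and 14 of 16 paralogs are in the bottom lane.

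The paralogs were nearly without peaks. Rpt6R, a copy of the ATPase gene Rpt6, ranked 11939 with a signal of 30.1 in the pooled list, 25143 in replicate 2 and 10542 in replicate 4. Rpt3R, a copy of Rpt3, ranked 26848 with a signal of 18.7, close to the lowest pooled signal of 17.3, and had a promoter peak in replicate 4 only, at rank 18686. The other 14, among them all 11 core paralogs, had no promoter peak in the pooled list or in either replicate list. They are Prosalpha1R, Prosalpha3T, Prosalpha4T1, Prosalpha4T2, Prosalpha6T, Prosbeta2R1, Prosbeta2R2, Prosbeta4R1, Prosbeta4R2, Prosbeta5R1, Prosbeta5R2, Rpn12R, Rpn13R and Rpt4R.

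Summits were also sparse outside the promoter window. No pooled summit lay within 5000 bp of any start site of 11 of the 16 paralogs, and 4 had none within 20000 bp, while each of the 32 main genes had one within 5000 bp. Over all protein-coding genes 17.1% had none within 5000 bp. For Prosalpha1 and Prosalpha1R the lists cannot tell a missing peak from unplaced reads: within 500 bp of their start sites no stretch of 36 bases occurs once in the genome, and 98.2% of the stretches of each occur in the other. Each of the other 46 members had at least 95.4% of such stretches unique.

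At any rank in the pooled list, 28 of 48 genes (58.3%, interval 43.2% to 72.4%) had a promoter peak, beside 54.7% of all protein-coding genes. The main genes had 26 of 32 (81.2%, interval 63.6% to 92.8%) and the paralogs 2 of 16 (12.5%, interval 1.55% to 38.3%), and these intervals do not overlap. The share of all genes lies below the interval of the main genes and above that of the paralogs. For the main genes this was lost in 2 alternatives: from replicate 4 alone they had 20 of 32 (62.5%, interval 43.7% to 78.9%), beside 51% of all genes, and with each peak given only to its nearest start site 17 of 32 (53.1%, interval 34.7% to 70.9%), beside 46.3%. Over all 48 members the share fell below that of all genes in the same alternatives, at 45.8% beside 51% and 37.5% beside 46.3%. The regulatory particle had 17 of 18 (94.4%, interval 72.7% to 99.9%) and the core 9 of 14 (64.3%, interval 35.1% to 87.2%), whose intervals overlap. Among the 10000 highest peaks the counts were 15 regulatory, 4 core and 0 paralog genes, 39.6% of the 48 in all, beside 35.6% of all genes. No test of these differences was run, since the genes were grouped with earlier results of these data known.

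**Figure D3:**
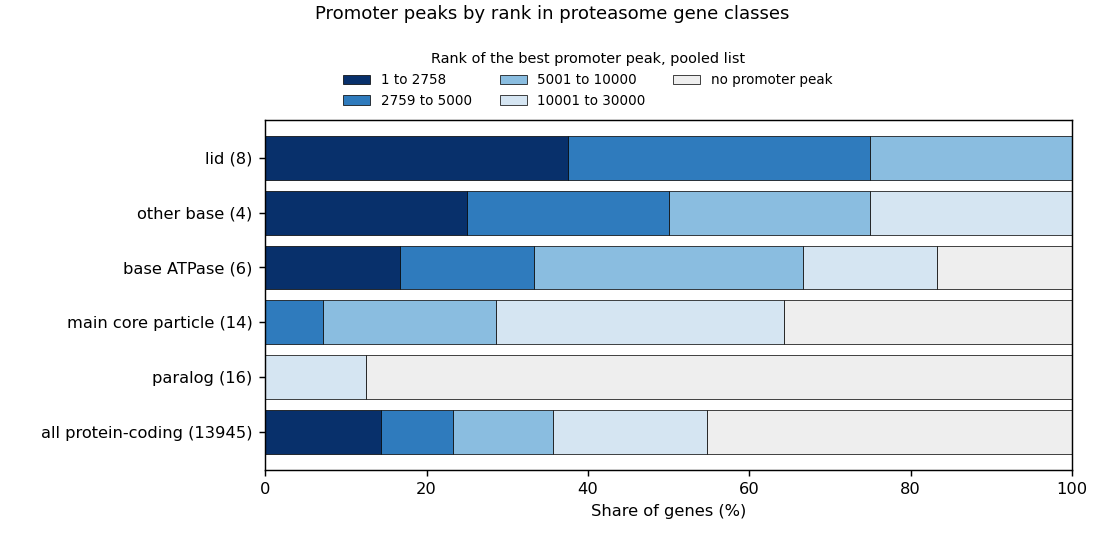
Share of genes (percent) by the rank of their best promoter peak in the pooled list, for the proteasome classes and all protein-coding genes (number of genes in brackets); the darkest band is the thresholded part. The lid has no gene without a peak, the paralogs have 87.5% without, and all protein-coding genes have 45.3% without.

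Each replicate was also read alone, by the same number of highest peaks as in the thresholded list. Replicate 2 had 7 members there (14.6%), beside 14.6% of all protein-coding genes, and replicate 4 had 6 (12.5%), beside 13.7%. Rpn3, Rpn5, Rpn11 and Rpt5 were in both. Rpn6, Rpn8 and Rpn13 were in replicate 2 only, and Rpn2 and Prosalpha7 in replicate 4 only. Over the whole lists, 27 members had a promoter peak in replicate 2 (all genes 56.2%) and 22 in replicate 4 (all genes 51%), and the core genes went from 9 of 14 in replicate 2 to 5 of 14 in replicate 4. Of the 28 best pooled peaks, 5 are thresholded. The other 23 had a summit within 100 bp in both replicates in 11 cases and in 1 replicate in 12.

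**Figure D4:**
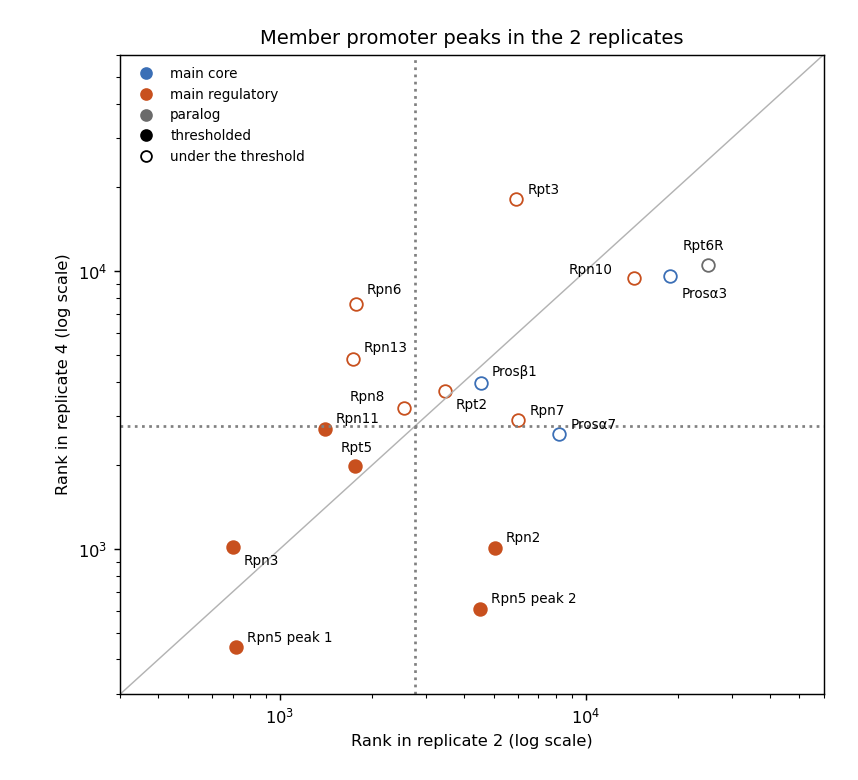
Rank of each member's best pooled promoter peak, and of the second Rpn5 peak, in replicate 2 and replicate 4 (both axes log scale), for peaks with a summit within 100 bp in both; filled points are thresholded and dotted lines mark rank 2758 in each replicate. Of the filled points, 4 are inside both lines, while Rpn2 and the second Rpn5 peak rank higher in replicate 4 and Rpn6 and Rpn13 higher in replicate 2.

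The classes differ in promoter layout too, and these values are given because the layout moves with promoter peaks over the genome. Genes with 1 annotated start site had a thresholded peak in 10.8% and a pooled peak of any rank in 46.5% of cases over all protein-coding genes, and genes with 2 or more in 24.3% and 77.6%. Among genes with 1 start site, the regulatory particle had 4 of 10 thresholded, the core 0 of 12 and the paralogs 0 of 14, and at any rank 9 of 10, 8 of 12 and 1 of 14. Among genes with 2 or more, the regulatory particle had 1 of 8 thresholded (12.5%, interval 0.316% to 52.7%), beside the 24.3% of all such genes, so it stood above all genes with 1 start site and below all genes with more. The core and the paralogs had 0 of 2 each there, and at any rank the counts were 8 of 8, 1 of 2 and 1 of 2.

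A divergent protein-coding neighbour starting within 1000 bp was annotated for 10 of 14 core genes, 9 of 18 regulatory genes and 3 of 16 paralogs, beside 34.7% of all protein-coding genes. Over all genes, those with such a neighbour had a thresholded peak in 25.2% and a pooled peak in 74.4% of cases, and those without in 8.7% and 44.3%. In the regulatory particle 4 of 9 genes with one were thresholded and 1 of 9 without, and 0 of the 10 core genes with one were (interval up to 30.8%, which holds the 25.2% of all such genes). Whether the neighbour's promoter accounts for a member's peak was not tested.

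In the 300 bases around start sites (250 before, 50 after), 12 motifs were searched on both strands, and the DRE is given first since its letters recur under the peaks. A gene counts where any of its start sites has the motif, so genes with several starts had more bases searched. Of regulatory genes 8 of 18 have 2 or more starts, of core genes 2 of 14 and of paralogs 2 of 16, beside 26.5% of all genes. TATCGATA was found at 6 of 14 core genes, 6 of 18 regulatory genes and 1 of 16 paralogs (Rpt3R), beside 10.2% of all protein-coding genes. Its core ATCGAT, which every TATCGATA also contains, was at 14 of 18 regulatory genes (77.8%), 6 of 14 core genes (42.9%) and 2 of 16 paralogs (12.5%). At Rpn6, Rpn8, Rpt3 and the paralog Rpt3R, ATCGAT was near an inner start site only, not the outermost one. All protein-coding genes had it in 26.3%, and those with a thresholded peak in 35.9%. A match is a description of the letters, and binding by Dref was not measured.

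Single genes differed in how the letters and the peaks went together. Prosbeta2 and Prosbeta6 have the full DRE 7 and 41 bp upstream of the start site, in the stretches printed above, and no promoter peak. The other core genes with a full DRE had pooled promoter peaks under the threshold. They are Prosalpha3, Prosalpha5, Prosalpha6 and Prosbeta1, at ranks 10058, 6062, 8689 and 4659. Rpn5 and Rpn11, with 3 of the 6 thresholded peaks, have neither ATCGAT nor CACTG in their stretches. Rpt5 has the full DRE 8 bp before the summit and CAACACTG in both directions after it. Rpn2 has ATCGAT at 2 places and CAACACTG past the summit. In the full window of 201 bases, of which the printed Rpn3 line is a part, Rpn3 has a DRE 64 bp past the summit.

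Within 100 bp of the summit, ATCGAT was present at 3 of 6 thresholded member peaks and at 11 of the 23 best peaks under the threshold, beside 17.6% of all 1526 thresholded promoter summits. The summit shares of all genes here are over thresholded summits only. No such share was computed for summits under the threshold, so the 23 have no like background. CACTG was present at 3 of 6 and 8 of 23, beside 46.5%, and CAACACTG at 2 of 6 and 0 of 23, beside 6.29%. TATAAA was present at 4 of 6, more than any other motif searched, and at 6 of 23, beside 31.6%. In the 300 bases around start sites, CACTG was at 15 of 18 regulatory genes, 6 of 14 core genes and 6 of 16 paralogs, beside 52.7% of all genes. At Rpn3, Rpn8, Rpt3 and the core gene Prosbeta7, CACTG was near an inner start site only. The longer CAACACTG, which contains CACTG, was at 3 members, Rpn2, Rpt5 and Rpt1, of which Rpt1 has no pooled peak, beside 4.37% of all genes.

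Of the other motifs around start sites, GAGAG was at 3 of 32 main genes and 6 of 16 paralogs, beside 36.3% of all genes. The antioxidant response element core TGACNNNGC, the kind of site that CncC binds with its Maf partner, was at 7 of 48 members (14.6%), beside 11.2%, and at none of the 5 with a thresholded peak. Core promoter motif 7 (CAGCNCTG) was at 10 members (20.8%), beside 8.86%, motif 1 (GGTCACACT) at 6 (12.5%), beside 6.78%, and TATAAA at 19 (39.6%), beside 51.2%. GC content of the 300 bases at each gene's outermost start site had a median of 33.2% over the members and 38% over all protein-coding genes.

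Genes that work with the proteasome and relatives of the lid were read together from a list of 47. The first kind were partners and assembly factors (14), ubiquitin supply (5) and the CncC pathway (4). The second kind were 2 complexes built like the lid, the COP9 signalosome (8) and the translation factor eIF3 (16). Of the 47, 13 had a thresholded promoter peak (27.7%, interval 15.6% to 42.6%), 4 of them eIF3 genes, and 38 had a pooled peak of any rank (80.9%). The 14.4% of all genes lies just under the first interval. In 3 alternatives the share of all genes lay inside it: with a window of 1000 bp (27.7% beside 16.5%, interval 15.6% to 42.6%), with the thresholded peaks above their median signal only (14.9% beside 7.72%, interval 6.20% to 28.3%) and from replicate 4 alone (19.1% beside 13.7%, interval 9.15% to 33.3%). Some of the 13 peaks also lie near the start of another protein-coding gene, given in brackets. They are Uch-L5 (Jarid2), rngo (Cdc50), Plap (CG31922), RpS27A (Ip259), Keap1 (kuk), eIF3a (CG1074) and eIF3h (senju). A peak of this kind cannot be given to 1 gene of the pair. With each peak given only to its nearest start site, the share was 25.5%, beside 10.5% of all genes. Since this list was also chosen with earlier results known, it is a description.

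Among partners, 4 of 14 were thresholded (28.6%, interval 8.39% to 58.1%, which holds the 14.4% of all genes). Plap, a cofactor of the segregase TER94, ranked 900 with a signal of 123, and rngo, a ubiquitin shuttle of the Ddi1 family, ranked 1674 with a signal of 89.4. The TER94 cofactor p47 ranked 2184 with a signal of 77.6, and the proteasome-bound deubiquitinase Uch-L5 ranked 2467 with a signal of 72.4. Sem1, a lid subunit that the symbols do not cover, ranked 7334 in the pooled list, below 8 of 8 lid genes named Rpn. It was below them in replicate 2 too, at 8122, but at 12596 in replicate 4 it stood above Rpn12. Pomp, the maturation factor of the core particle, ranked 3253 in the pooled list and 2100 in replicate 2, above every core gene in both. In replicate 4 it ranked 7912, below Prosalpha7 at 2590 and Prosbeta1 at 3947.

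Of the ubiquitin genes, 2 of 5 were thresholded (40%, interval 5.27% to 85.3%, which holds the 14.4% of all genes). They were the polyubiquitin gene Ubi-p63E at rank 977 with a signal of 119 and the ubiquitin fusion gene RpS27A at rank 1238 with a signal of 105. In the CncC pathway 3 of 4 were thresholded (75%, interval 19.4% to 99.4%), beside 14.4% of all genes. They were cnc itself at rank 774 with a signal of 132, its inhibitor Keap1 at rank 1416 with a signal of 97.7, and Pngl, the fly N-glycanase, at rank 2119 with a signal of 78.9. The gene cnc has 10 annotated start sites, and its summit lay 355 bp downstream of the nearest. Of all genes with 2 or more start sites, 24.3% had a thresholded peak. The cnc peak was lost with a window of 250 bp, with the peak interval over the start site and with the outermost start site only. Of the 2 lid-like complexes, eIF3 had 4 of 16 (eIF3h at 671, eIF3c at 854, eIF3a at 1272 and eIF3d1 at 1591). The COP9 signalosome had 0 of 8, with CSN3 the highest at rank 3569. Their intervals, 7.27% to 52.4% for eIF3 and up to 36.9% for the signalosome, overlap and both hold the 14.4% of all genes.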

How the data were processed

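Genome-wide binding of GFP-tagged CG12744 was measured by ChIP-seq in 2 replicate libraries of whole embryos. The authors deposited narrowPeak lists. The signal and the summit offset of each peak are the authors' deposited values, and the scale of the signal is not stated. Per the deposited text records, replicate and pooled lists were called with a control and the thresholded list came from them by the irreproducible discovery rate. Which caller and which aligner were used is not given in the sources used here. Lists on dm3 were not used.

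Summits (start plus offset, written 1-based) were set against start sites of the Ensembl release 115 BDGP6 annotation without transposable elements. Motifs were searched in the RefSeq Release 6 genome, whose arms are as long as or longer than every peak and gene end in the lists. Peaks were ranked by signal within a list. Where a gene has several promoter peaks, the best ranked is given unless the text says otherwise, and values given for a replicate are those of the gene's best promoter peak in that list. At the second Rpn5 peak, replicate values belong to the summit within 100 bp. Intervals are exact binomial. Python 3.11.15, numpy 2.4.6, scipy 1.17.1 and matplotlib 3.10.9 were used, and the assignment was tested on simulated data. The members, lists and motifs were chosen with earlier results of these data known. Named were every member, pathway genes with a thresholded peak, neighbours at thresholded member and pathway summits and members beside the threshold. The other named genes (CSN3, Sem1, Pomp and TER94) and the printed Prosbeta2 and Prosbeta6 start sites were chosen after their values were seen. Alternatives were other windows, thresholds, peak assignments, match distances and single replicates. An outermost start site only, and leaving out Prosalpha1 and Prosalpha1R, were chosen after seeing the data.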

Additional observations from a re-analysis of the deposited data

How the results depend on the processing

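Of 71 alternatives, 58 left a share or count within 1.5 times of the value given, or the median position within the SD between replicates, and 13 moved it further. That SD, 0.354 bp, comes from 2 medians and does not measure the uncertainty of a median over 6 peaks. With only the thresholded peaks above their median signal (7.72% of all protein-coding genes), shares were 4.17% of members (Rpn3 and Rpn5), 11.1% of regulatory genes and 14.9% of the pathway list. Giving each peak only to its nearest start site left 6.25% of members and 16.7% of regulatory genes thresholded (Rpn2, Rpn3, Rpn11; all genes 10.5%), and 37.5% of members, 53.1% of main genes and 6.25% of paralogs with any pooled peak (all genes 46.3%). Among the 10000 highest peaks, paralogs had 0 (all genes 35.6%). Summits within 50 bp in both replicates numbered 3. With a window of 250 bp, the median position was -52 bp. With 1 replicate in place of both, thresholded shares ran from 12.5% to 14.6% (members), 0% to 7.14% (core, Prosalpha7 without replicate 2), 27.8% to 38.9% (regulatory), 0% to 0% (paralogs) and 19.1% to 34.0% (pathway), beside 13.7% and 14.6% of all genes without replicate 2 and without replicate 4. Shares with any peak ran from 45.8% to 56.2% (members), 62.5% to 81.2% (main) and 6.25% to 12.5% (paralogs, the lower without replicate 4), beside 51% and 56.2%. Set against all genes, the members changed side in 3 alternatives besides the single replicate 2, whose shares were nearly equal: thresholded with the peak interval over the start site (10.4% beside 9.90%), and at any rank with the nearest start site only and without replicate 2. The outermost start site only and the removal of the Prosalpha1 pair were chosen after seeing the data and moved no share by over 1.5 times. No paired analysis was possible because there is 1 group. Depth, background level and read length are unknown from peak lists, so a missing peak is not shown to be missing binding.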
